A study of Homo sapiens with 18 samples.

Results

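GR binding regions (GBR, the peaks of GR ChIP-seq) were examined near 9 genes of the aldosterone and glucocorticoid regulated sodium transport pathway in U2OS-GRα cells. The genes were the 4 subunit genes of the epithelial sodium channel (SCNN1A, SCNN1B, SCNN1G and SCNN1D), the kinase genes SGK1, SGK2 and SGK3, the ubiquitin ligase gene NEDD4L and the sodium pump gene ATP1B1. A GBR was counted for a gene when its summit lay within 100 kb of the transcription start site (TSS) of the gene's canonical GENCODE transcript, and GBR of different lists were treated as 1 merged GBR when they overlapped by at least 1 bp. By this rule 10 of the 9736 merged GBR lay near 5 of the 9 genes, while SGK1, SGK2, SGK3 and ATP1B1 had 0.

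U2OS-GRα is an osteosarcoma line made to express GRα stably, so that the receptor level is set by a transgene, and all results come from this 1 line. Cells were transfected for 48 h with 1 of 6 siRNA combinations. The control, siNS/siNS, received non-specific siRNA alone. In siHic5/siNS the GR coregulator Hic-5 was depleted, in siCHD9/siNS and siBRM/siNS the ATP-dependent chromatin remodelers CHD9 and BRM, and in siCHD9/siHic5 and siBRM/siHic5 a remodeler together with Hic-5. Every combination then received dex, a synthetic glucocorticoid, at 100 nM for 1 h. The 12 ChIP libraries were 2 replicates per combination, but each of the 6 deposited peak lists was called on both replicates together, so a list is 1 value per condition, no spread between replicates can be given and no difference between lists was tested.

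The epithelial sodium channel (ENaC) carries sodium through the apical membrane of kidney collecting duct, colon and airway cells. It is usually built from the α, β and γ subunits encoded by SCNN1A, SCNN1B and SCNN1G, and the δ subunit encoded by SCNN1D can take the place of α. NEDD4L binds the channel and marks it for removal from the surface, SGK1 phosphorylates NEDD4L and so keeps more channel in place, and the Na,K-ATPase, whose β1 subunit is encoded by ATP1B1, moves the sodium out across the basolateral side. SCNN1A and SGK1 are long known as genes induced by corticosteroids. The data here hold GR occupancy and no expression, U2OS cells are not an epithelium, and a GBR within 100 kb of a TSS need not act on that gene.

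Sequences of 121 bases centered on the siHic5/siNS summit are given for GBR on which the results turn. The reason is that the strongest and the weakest of these GBR both carry a GR element at the summit. Coordinates are GRCh38, the strand is plus, and each name gives the distance of the summit from the canonical TSS of the gene, downstream being positive. Capitals mark a match to the glucocorticoid response element (GRE), an inverted repeat of 15 bp with a spacer of 3 bases, with at most 1 mismatch over its 10 defined positions. In the SCNN1G sequence a second run of capitals marks an AP-1 match (TGAGTCA).
SCNN1A −0.76 kb, chr12:6376261-6376381: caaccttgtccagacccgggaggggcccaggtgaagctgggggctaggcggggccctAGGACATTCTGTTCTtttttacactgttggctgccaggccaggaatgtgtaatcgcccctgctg
SCNN1A +2.38 kb, chr12:6373121-6373241: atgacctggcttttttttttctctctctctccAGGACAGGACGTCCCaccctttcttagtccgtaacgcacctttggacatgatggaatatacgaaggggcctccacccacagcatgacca
SCNN1B −45.7 kb, chr16:23256541-23256661: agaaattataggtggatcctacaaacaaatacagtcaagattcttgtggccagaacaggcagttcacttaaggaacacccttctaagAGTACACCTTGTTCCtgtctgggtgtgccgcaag
SCNN1B +60.5 kb, chr16:23362737-23362857: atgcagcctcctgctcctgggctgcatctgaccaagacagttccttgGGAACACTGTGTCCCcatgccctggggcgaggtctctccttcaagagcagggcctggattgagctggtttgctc
SCNN1G −58.3 kb, chr16:23124409-23124529: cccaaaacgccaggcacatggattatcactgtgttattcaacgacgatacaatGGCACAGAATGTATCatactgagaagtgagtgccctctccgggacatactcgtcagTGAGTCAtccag
SCNN1D −71.5 kb, chr1:1208918-1209038: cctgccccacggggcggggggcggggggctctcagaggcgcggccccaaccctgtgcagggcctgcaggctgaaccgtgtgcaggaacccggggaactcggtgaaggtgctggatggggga
SGK1 +142.1 kb, chr6:134175963-134176083: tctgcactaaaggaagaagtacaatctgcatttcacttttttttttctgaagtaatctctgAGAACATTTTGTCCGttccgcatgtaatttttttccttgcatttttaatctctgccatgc
NEDD4L +241.7 kb, chr18:58285882-58286002: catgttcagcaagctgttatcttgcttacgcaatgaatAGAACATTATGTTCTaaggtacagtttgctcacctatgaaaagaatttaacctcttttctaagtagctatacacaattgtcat

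The GRE match at SCNN1A −0.76 kb had no mismatch, as had those at SCNN1B −45.7 kb, SCNN1B +60.5 kb and NEDD4L +241.7 kb. Those at SCNN1A +2.38 kb, SCNN1G −58.3 kb and SGK1 +142.1 kb each had 1 mismatch. The SCNN1D sequence has no capitals because no match was found in it, which says only that these letters are not in this window.

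The siHic5/siNS list held the most GBR near these genes, as it did over all merged GBR. The siNS/siNS list held 6 GBR near 4 genes, and the siHic5/siNS list held 10 near 5. Over all merged GBR, 26.2% were called in siNS/siNS and 97.8% in siHic5/siNS, against 60 and 100% of the 10 near these genes. With a remodeler depleted alone there were 3 GBR, near 3 genes in siCHD9/siNS and near 2 in siBRM/siNS. The double depletions held 4 GBR near 4 genes in siCHD9/siHic5 and 6 GBR near 4 genes in siBRM/siHic5. Of all merged GBR, 14.3% were called in siCHD9/siNS, 24.9% in siCHD9/siHic5, 12.9% in siBRM/siNS and 34.5% in siBRM/siHic5, against 30, 40, 30 and 60% of the 10 near these genes. These counts follow list sizes that differed widely, from 1278 peaks in siBRM/siNS to 9533 in siHic5/siNS, and the lowest −log10 q-value kept in a list ran from 7.26 in siBRM/siNS to 14.2 in siBRM/siHic5. Over all protein-coding genes, 17.0% had a siNS/siNS GBR within 100 kb, against 4 of the 9 genes here, and 43.6% had a siHic5/siNS GBR, against 5 of 9.

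**Figure D1:**
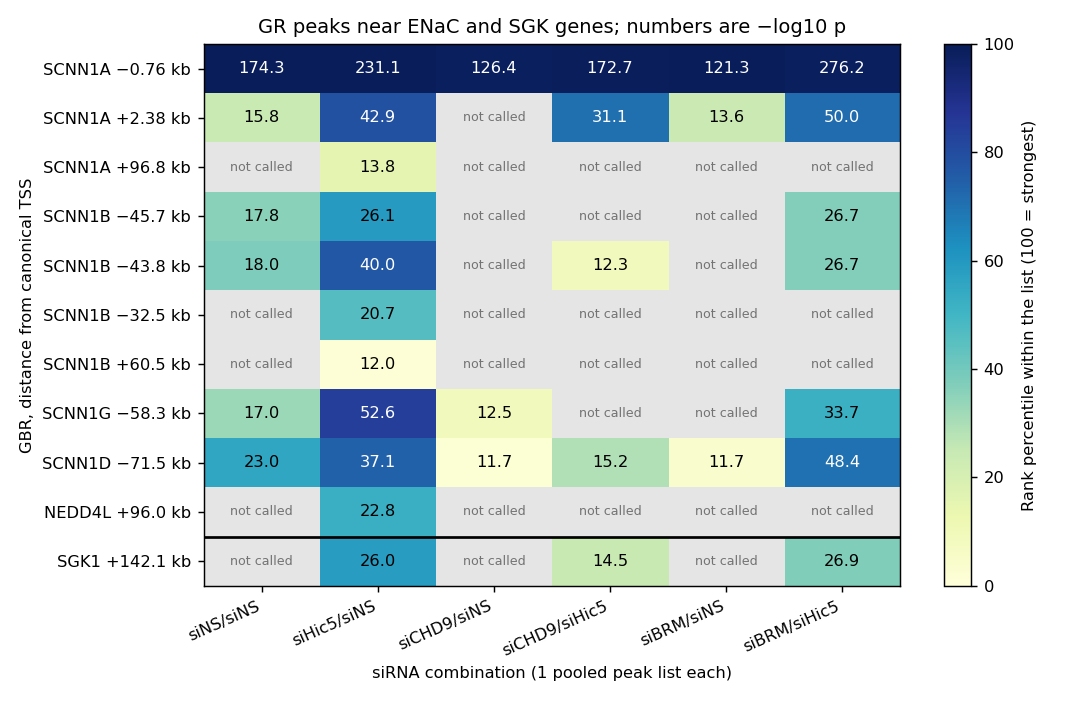
Calls at the 10 merged GBR near the sodium transport genes and, under the line, at the GBR by the short SGK1 transcripts. Columns are the 6 siRNA combinations, numbers are the −log10 p-value, color is the rank percentile within a list (100 is strongest) and grey cells were not called. SCNN1A −0.76 kb is called in all 6 lists, between 121 and 276, while 4 GBR have a single value, in siHic5/siNS.

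The ENaC α gene SCNN1A had the strongest GBR of the set. Its summit lay 0.758 kb upstream of the canonical TSS, at chr12:6375914-6377069, where introns of longer SCNN1A transcripts and of the neighboring gene LTBR overlap. The TSS of LTBR, a receptor of the tumor necrosis factor family, was 7.84 kb away. The −log10 p-value was 174 in siNS/siNS, 231 in siHic5/siNS, 126 in siCHD9/siNS, 173 in siCHD9/siHic5, 121 in siBRM/siNS and 276 in siBRM/siHic5. It therefore ranked from the 7th peak (siBRM/siNS) to the 54th (siHic5/siNS), in the top 0.548 to 1.27% of every list. The 6 summits fell within 7 bp of each other, and the center of the GRE match lay 4 bp from the siHic5/siNS summit. A GBR called in all 6 lists within 1 kb of the canonical TSS was found for 42 protein-coding genes, 0.210% of them, and SCNN1A is 1 of these.

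A second SCNN1A GBR, in an intron 2.38 kb downstream of the TSS (chr12:6372522-6373423), was called in every list but siCHD9/siNS. Its −log10 p-value was 15.8 in siNS/siNS, 42.9 in siHic5/siNS, 31.1 in siCHD9/siHic5, 13.6 in siBRM/siNS and 50.03 in siBRM/siHic5. Its ranks in these lists were 1960 of 2582, 2028 of 9533, 723 of 2451, 978 of 1278 and 977 of 3383, and because the lists differ in length no change is read from them. It lay 3.14 kb from the GBR upstream of the TSS. Another GBR, 96.8 kb downstream of the TSS in intergenic DNA nearer to PLEKHG6, was called in siHic5/siNS alone with a −log10 p-value of 13.8.

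SCNN1B and SCNN1G, the β and γ subunit genes, lie side by side on chromosome 16 and had 5 GBR between them, 3 of which were within 100 kb of both. A pair 1.91 kb apart stood in intergenic DNA between the genes, 45.7 and 43.8 kb upstream of SCNN1B (the first at chr16:23256414-23256827). The GBR at −45.7 kb had a −log10 p-value of 17.8 in siNS/siNS, 26.1 in siHic5/siNS and 26.7 in siBRM/siHic5. The GBR at −43.8 kb had 18.0 in siNS/siNS, 40.0 in siHic5/siNS, 12.3 in siCHD9/siHic5 and 26.7 in siBRM/siHic5. Both were thus missing from the siCHD9/siNS and siBRM/siNS lists, and in siCHD9/siHic5 only the second was called, at rank 2225 of 2451. The GBR 32.5 kb upstream of SCNN1B and the GBR in a SCNN1B intron at +60.5 kb were called in siHic5/siNS alone. The intronic GBR was among the weakest of that list, with a −log10 p-value of 12.0 at rank 9395 of 9533, although its window holds a GRE without mismatch 6 bp from the summit.

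The GBR nearest to the SCNN1G TSS lay 58.3 kb upstream of it (chr16:23124179-23124690), in an intron of USP31, a deubiquitinase family gene whose own TSS was closer at 24.98 kb. The −log10 p-value was 17.0 in siNS/siNS, 52.6 in siHic5/siNS, 12.5 in siCHD9/siNS and 33.7 in siBRM/siHic5, and there was no call in siCHD9/siHic5 or siBRM/siNS. Its rank was 1737 of 2582 in siNS/siNS and 1498 of 9533 in siHic5/siNS, lists of different length. The call in siCHD9/siNS was near the end of that list, at 90.7% from the top.

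SCNN1D, the δ subunit gene, had a single GBR, called in all 6 lists, 71.5 kb upstream of its TSS at chr1:1208616-1209372. TNFRSF18, which encodes the costimulatory receptor GITR, was much nearer, with its TSS 2.39 kb away. The −log10 p-value was 23.0 in siNS/siNS, 37.1 in siHic5/siNS, 11.7 in siCHD9/siNS, 15.2 in siCHD9/siHic5, 11.7 in siBRM/siNS and 48.4 in siBRM/siHic5. Its ranks were close to the end of both single remodeler depletion lists, 1390 of 1415 and 1227 of 1278. The 1-kb window around the siHic5/siNS summit had a GC content of 69.3%. The summits of the 6 lists spread over 62 bp, with that of siHic5/siNS 50 to 62 bp from the others. The printed sequence is centered on the siHic5/siNS summit.

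NEDD4L, the ubiquitin ligase that lowers surface ENaC, had 1 GBR by the rule, in its own intron 96.0 kb downstream of the TSS (chr18:58139970-58140405). It was called in siHic5/siNS alone, with a −log10 p-value of 22.8 at rank 4576. The rule reaches only the first part of this long gene. Within the whole gene and 100 kb to either side there were 10 GBR, 4 in the gene and 6 between 12.9 and 55.3 kb past its end, the last 3 within 2.71 kb. All 10 were called in siHic5/siNS alone and in none of the other 5 lists. Over all merged GBR 57.5% were called in siHic5/siNS alone. The 10 had ranks from 3217 to 9395 in that list, and among all merged GBR with a siHic5/siNS rank in or below this range 81.5% were called there alone. Of the 10, 7 had a GRE match in the 1-kb window, with 53.6% over all siHic5/siNS GBR, and 4 had one without mismatch, with 11.2%. In a 200-bp window 5 had a match, with 46.2% over the list. The nearest canonical protein-coding TSS to the 6 GBR past the gene was that of ALPK2, between 172 and 215 kb away, and the summit at +402.6 kb lay in the lncRNA gene MIR122HG.

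SGK1 had no GBR within 100 kb of its canonical TSS, which is the start of a long transcript. The start sites of shorter SGK1 transcripts lie far downstream of it, and there a GBR was found at chr6:134175708-134176313, 142 kb from the canonical TSS, 32 bp upstream of the start of 1 short coding transcript and 1.16 kb upstream of another. Its −log10 p-value was 26.0 in siHic5/siNS, 14.5 in siCHD9/siHic5 and 26.9 in siBRM/siHic5. It was called in all 3 lists with Hic-5 depleted and in none of the 3 with Hic-5 present, a pattern shown by 2.92% of all merged GBR. A GRE match with 1 mismatch was centered 8 bp from the siHic5/siNS summit. Upstream of the canonical TSS the nearest GBR was just outside the limit, at −104.8 kb, and was called in 4 lists, siNS/siNS among them. The GBR just inside the limit were those at NEDD4L +96.0 kb and SCNN1A +96.8 kb, and the next ones outside it were at SCNN1B +107.9 kb and SCNN1A +108.1 kb, all 4 in siHic5/siNS alone.

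The related kinase genes SGK2 and SGK3 had their nearest GBR 192 and 153 kb away, both called in siHic5/siNS and siBRM/siHic5. ATP1B1, the β1 subunit gene of the sodium pump, had none within 250 kb, and its nearest GBR, 379 kb away, was in all 6 lists. A missing call says that no peak passed that list's threshold, not that GR was absent.

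At the deposited thresholds, the calls gained on Hic-5 depletion ranked lower in siHic5/siNS than the other calls near these genes. The gained calls were picked by a missing call in a shorter list, so this order is not a separate result. Of the 10 siHic5/siNS GBR, 4 had no overlapping siNS/siNS peak (blocked GBR), a share of 40% with a Wilson interval of 16.8 to 68.7%, and over the whole list it was 74.0%. These 4 ranked between 4576 and 9395 in siHic5/siNS, and the 6 called in other lists too ranked between 54 and 3901. None of the 6 siNS/siNS GBR was absent from siHic5/siNS, where the list as a whole had 3.18% absent. The blocked share moved with the limits set. At a −log10 q-value cutoff of 14.2 for every list it was 6 of 8, 75% against 76.1% over the list, because SCNN1A +2.38 kb, SCNN1G −58.3 kb and both SCNN1B GBR between the genes then had no siNS/siNS call. Those GBR ranked between 1498 and 3901 in siHic5/siNS. Each has a deposited siNS/siNS call, with a −log10 q-value from 11.9 at SCNN1A +2.38 kb to just under the cutoff. They count as blocked only because the cutoff removed these calls, so nothing about the strength of blocked GBR is read from them. With all protein-coding transcripts of the 9 genes as starting points the blocked share was 17 of 23, or 73.9%. Within 50 kb of the canonical TSS it was 1 of 5. Within 200 kb it was 13 of 21, or 61.9%. The share thus stayed below that of the list with other distances and overlap rules. It came close to the list's share or passed it with other transcripts or −log10 q-value cutoffs (5 of 6 against 76.6% at a cutoff of 20). With the 1000 strongest peaks of each list it was 0 of 1, against 28.8%.

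Part of the calls were missing after remodeler depletion. These shares rest on 10 GBR or fewer, some of them neighbors, and for 3 of 6 the Wilson interval was 18.8 to 81.2%. Such wide intervals cannot tell these genes from the whole lists, so no likeness or difference is read from them. Of the siNS/siNS GBR, 3 of 6 were absent from siCHD9/siNS, with 51.4% over the list, and 3 of 6 from siBRM/siNS, with 52.2%. The pair between SCNN1G and SCNN1B was absent from both, SCNN1A +2.38 kb from the first and SCNN1G −58.3 kb from the second. Of the 10 siHic5/siNS GBR, 6 were absent from siCHD9/siHic5, with 75.4% over the list, and 4 from siBRM/siHic5, with 65.4%. All 4 blocked GBR were absent from both double depletions, as were 79.5% of all blocked GBR. Of the GBR present with both proteins of a pair depleted, 2 of 4 in siCHD9/siHic5 had no siCHD9/siNS peak (46.0% of that list) and 3 of 6 in siBRM/siHic5 had no siBRM/siNS peak (63.9%). Across all 6 lists 2 of the 10 merged GBR were called, with 9.05% over all merged GBR, and 4 of the 10 were called in siHic5/siNS alone, the share over all being the 57.5% given for NEDD4L.

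Among the 6 siHic5/siNS GBR with a −log10 q-value of at least 20 the double depletions had different numbers of calls. All 6 were called at that level in siBRM/siHic5 too, where 48.4% of such GBR over the list were absent. In siCHD9/siHic5 4 of the 6 were absent at that level, namely those near SCNN1B, SCNN1G and SCNN1D, and 78.2% of such GBR over the list. Both SCNN1A GBR close to the TSS were called at that level in both double depletions. Scores ran higher over the whole siBRM/siHic5 list, with a median −log10 p-value of 32.8 against 20.7 in siCHD9/siHic5. The cutoff of 20 was therefore not equally strict in both, and no difference between the remodelers is read from these counts.

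The deposited signal value of a peak was also compared between lists, as a ratio read beside the median ratio of all GBR called in both. For siHic5/siNS over siNS/siNS this median was 1.71, with 10th and 90th percentiles of 1.07 and 2.71. SCNN1A −0.76 kb rose from 20.4 to 36.3, a ratio of 1.78, and SCNN1A +2.38 kb had a ratio of 1.59. The ratio was 1.32 at SCNN1B −45.7 kb, 1.70 at SCNN1B −43.8 kb, 1.40 at SCNN1D −71.5 kb and 2.14 at SCNN1G −58.3 kb. All 6 ratios were within the range from the 10th to the 90th percentile, so none of these GBR had an unusual ratio for its list.

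Where both lists of a pair held a call, both SCNN1A GBR near the TSS had signal ratios above the median after remodeler depletion. SCNN1A +2.38 kb was not called in siCHD9/siNS, so it has no ratio in that pair. For siCHD9/siHic5 over siHic5/siNS the median ratio was 0.569, SCNN1A −0.76 kb had 0.733 and SCNN1A +2.38 kb had 1.01, above 93.2% of the 2340 GBR in both lists. For siBRM/siHic5 over siHic5/siNS the median was 0.764, and the ratios were 0.778, above only 52.7% of GBR, and 1.15. With Hic-5 present, siBRM/siNS over siNS/siNS had a median of 0.767 and the ratios were 1.08 and 0.988, and siCHD9/siNS over siNS/siNS had a median of 0.890 and 1.13 at SCNN1A −0.76 kb. The GBR by the short SGK1 transcripts had 0.820 in the CHD9 pair and 1.27 in the BRM pair, above 83.1 and 93.4% of GBR. SCNN1B −43.8 kb had 0.435 and 0.605, below the median in both. In the BRM pair SCNN1D −71.5 kb (1.04) and SCNN1B −45.7 kb (0.882) were also above the median. Such a ratio was thus not particular to SCNN1A in that pair. SCNN1G −58.3 kb was below it, at 0.643. SCNN1D −71.5 kb was below the median in the CHD9 pair, above 37.4% of GBR. With Hic-5 present SCNN1D −71.5 kb was below both medians, at 0.696 in siCHD9/siNS and 0.679 in siBRM/siNS. SCNN1G −58.3 kb was just below, at 0.882 in siCHD9/siNS.

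**Figure D2:**
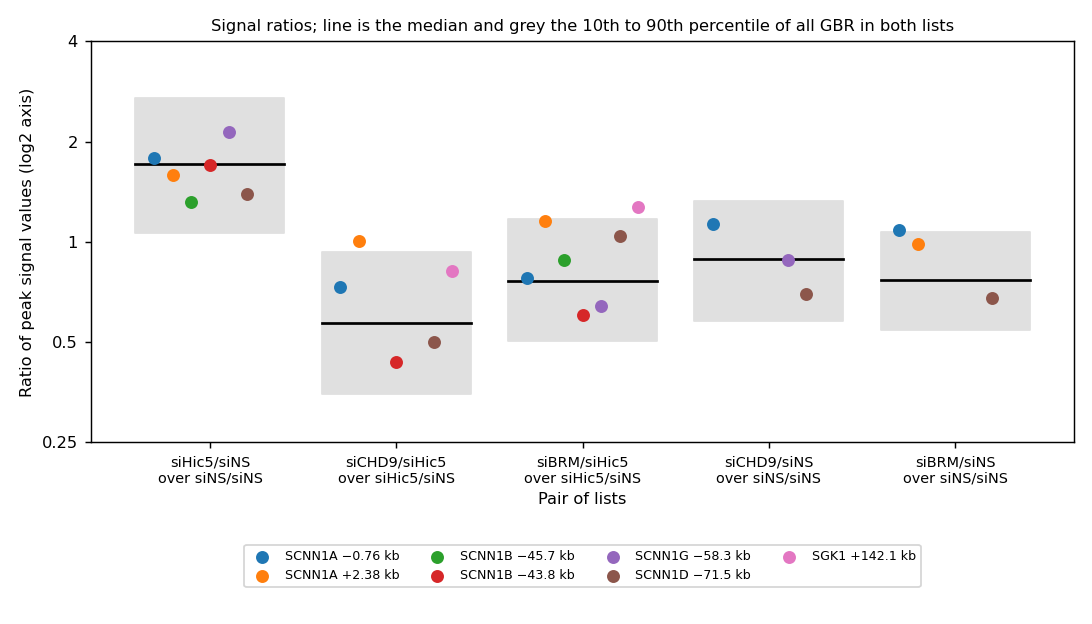
Ratio of peak signal values between pairs of lists, on a log2 axis, for GBR called in both. Points are single GBR, the line is the median over all GBR in both lists and grey spans the 10th to the 90th percentile. After Hic-5 depletion all points are within the grey span around the median of 1.71. SCNN1A +2.38 kb is above the span in the pair with CHD9 and Hic-5 depleted, the SGK1 point is above it in the pair with BRM and Hic-5 depleted, and SCNN1A −0.76 kb is just above it for siBRM/siNS over siNS/siNS.

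The sequence under the summits was searched on both strands of a 1-kb window for the GRE, for AP-1 (TGAGTCA or TGACTCA) and for an ETS sequence (CAGGAA or CCGGAA, then A or G, then C or T). A GRE was found in 7 of the 10 GBR, with 53.6% over all siHic5/siNS GBR, and in the same 7 within 100 bp of the summit, with 46.2%. The 3 without were SCNN1A +96.8 kb, SCNN1D −71.5 kb and NEDD4L +96.0 kb. A GRE without mismatch was in 3 of the 10, with 11.2% over the list, and these 3 ranked 54, 3901 and 9395, so such a match was found at strong and weak calls alike. AP-1 was found in 4 of 10, with 37.1%, and ETS in 3 of 10, with 37.9%. All 5 ENaC GBR on chromosome 16 had a GRE within 44 bp of the summit, and the SCNN1G GBR also had an AP-1 match 52 bp away.

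**Figure D3:**
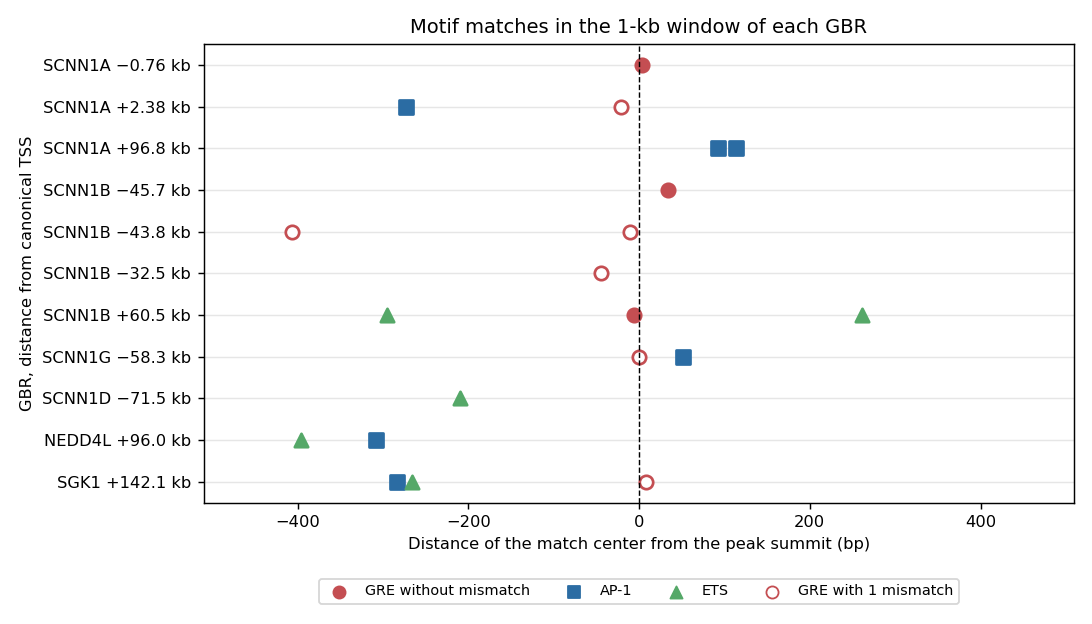
Motif matches by distance from the siHic5/siNS summit, in bp, for the 10 merged GBR and the GBR by the short SGK1 transcripts. Red circles are GRE (filled without mismatch, open with 1 mismatch), blue squares AP-1 and green triangles ETS. In 7 of the 10 GBR a GRE lies within 44 bp of the summit.

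For the wider pathway, a list of 47 genes of sodium, potassium and water transport and their regulators was counted in the same way. A GBR within 100 kb was found for 13 of the 47 in siNS/siNS (27.7%, against 17.0% of protein-coding genes) and for 28 in siHic5/siNS (59.6% against 43.6%). There were 8 in siCHD9/siNS (17.0% against 10.5%) and 12 in siCHD9/siHic5 (25.5% against 16.4%). There were 9 in siBRM/siNS (19.1% against 9.92%) and 15 in siBRM/siHic5 (31.9% against 22.2%). The list has 8 groups, of which 6 had more genes with a GBR in siHic5/siNS than in siNS/siNS and 2 had the same number. The siHic5/siNS list is the longer, with 9533 peaks against 2582, and other groups of genes were not counted. The 6 of 8 is therefore not particular to these groups. The 8 regulators of ENaC surface level had 2 in siNS/siNS, 6 in siHic5/siNS and 2 in either double depletion, and the 9 WNK kinase pathway genes had 1, 4 and 1. The 8 sodium pump genes had 2, 3 and 3, and the 3 other corticosteroid regulated genes had 2 in every list.

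A GBR within 10 kb of the TSS was found for 2 of the 47 genes in siNS/siNS and for 6 in siHic5/siNS. The share over all protein-coding genes at 10 kb is not given per list, so these counts are not read as particular to the pathway. CNKSR3, a scaffold protein that holds the ENaC regulatory complex together, had one 0.234 kb upstream, and FURIN, a protease that cleaves and activates ENaC, had one at 1.23 kb, both in siHic5/siNS alone. WNK4, a kinase that controls the thiazide sensitive cotransporter, had one at 2.95 kb, also in siHic5/siNS alone. Calls in siHic5/siNS alone made up 57.5% of all merged GBR. The nearest GBR of the clock gene PER1, at 0.495 kb, was called in the 3 lists with Hic-5 depleted, and PER1 had a call within 10 kb in every list.

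**Figure D4:**
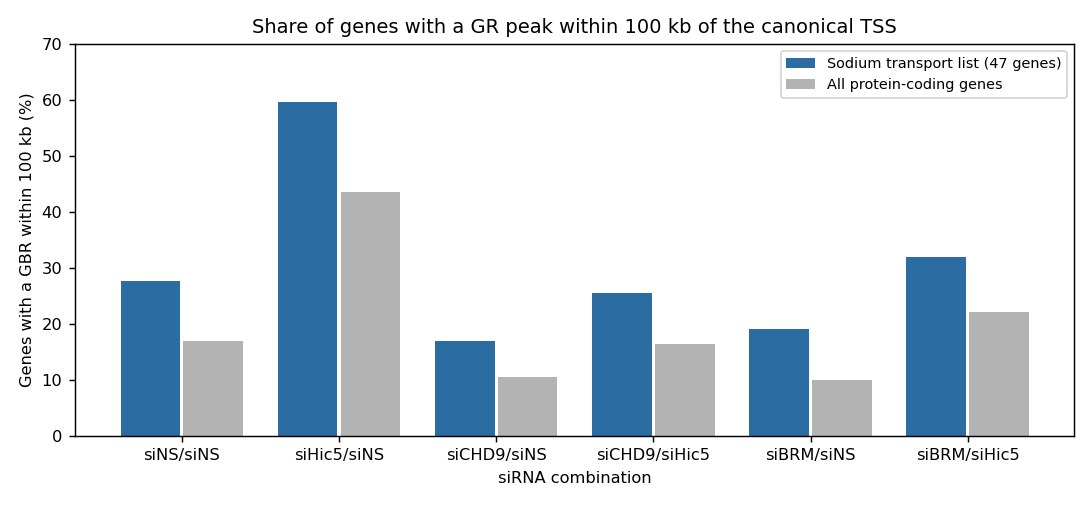
Share of genes with a GR peak within 100 kb of the canonical TSS, in percent, for the 47 genes of the sodium transport list (blue) and all protein-coding genes (grey) in each of the 6 lists. Bars are counts over genes in 1 pooled list each, and the blue bar reaches 59.6% in siHic5/siNS, against 43.6%.

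The genes whose nearest GBR was most like that of SCNN1A were found by the distance between rank percentiles over the 6 lists, among 1652 protein-coding genes with a GBR within 10 kb. They were DECR1, at 0.838 percentile points, then ZFP36, MT2A, ARMC12 and NFKBIA, at 1.52, 1.56, 1.57 and 1.83, each with a GBR called in all 6 lists. The closest to SCNN1G −58.3 kb was SLC14A1 at 13.2 points, and the closest to SCNN1D −71.5 kb was EBI3 at 16.7. Neither had a close match among these candidates, and GBR farther than 10 kb from a TSS were not compared. The 6 lists share a cell line and a treatment, and the distances are descriptions.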

How the data were processed

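GR ChIP-seq was done in U2OS-GRα cells, with 12 ChIP and 6 input libraries. The authors aligned trimmed single-end reads to GRCh38 using BWA, discarded duplicates and mitochondrial alignments, and ran MACS2 and IDR with replicates pooled. Versions of these tools are not given in the sources used here. The deposited lists give a signal value per peak, which the peak format describes as a fold enrichment and the authors' data legend as mean enrichment in CPM, so its scale is uncertain. They also give the authors' p- and q-values, as −log10, and the summit. The lists hold no read counts, so the counts behind a call are unknown here, and weak calls may differ between lists through depth, which was not tested. The siRNA depletion could not be checked in peak lists.

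The summits were assigned to canonical TSS of GENCODE 44, peaks were merged at 1 bp overlap, and ranks within a list used the −log10 p-value, ties sharing the better rank. Values were described and not tested, and a share near the genes may carry a 95% Wilson interval, for counting error only. Where lists were compared, the share over the whole list stands beside that of the genes. Described in full were merged GBR called in 5 or 6 lists, the GBR nearest to each TSS and the strongest siHic5/siNS GBR of each gene. Genes of the pathway list were named if a GBR lay within 10 kb. Some genes that this rule would name, and 1 GBR sequence, are not reported here. Members and lists were chosen with earlier results of these data known. The NEDD4L and SGK1 GBR outside the rule, the count of SGK1-like call patterns and the rank-limited share at NEDD4L were added after seeing the data. Alternatives were other distances, other TSS, score cutoffs, overlap rules and motif settings. Overlap, merging and motif code was tested on simulated data. Python 3.11.15, NumPy 2.4.6, SciPy 1.17.1, pysam 0.24.0, samtools 1.23.1 and Matplotlib 3.10.9 were used.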

Additional observations from a re-analysis of the deposited data

Results flagged for a closer look

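The GBR 58.3 kb upstream of SCNN1G lost its call on Hic-5 depletion in 1 background and gained a call in another. Only calls were compared, because a missing call has no value. With CHD9 depleted this GBR was called with Hic-5 present, at a −log10 p-value of 12.5 in siCHD9/siNS, and not called in siCHD9/siHic5. With BRM depleted it was not called in siBRM/siNS and was called in siBRM/siHic5 at 33.7. Such opposite calls were seen at 72 of the 9736 merged GBR, or 0.740%. Of the 9736, 5598 were called in siHic5/siNS alone and could not show them. The siCHD9/siNS call was near the end of its list, at rank 1284 of 1415, each list is a single pooled value, and the difference was not tested.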

How the results depend on the processing

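Of 54 values under other settings, 19 were within 1.5 times the reported value and 35 moved further, 16 of them upward. The reported values were 10 merged GBR and 10 siHic5/siNS GBR near the genes, 2 called in all 6 lists, and 4, 6 and 4 siHic5/siNS GBR absent from siNS/siNS, siCHD9/siHic5 and siBRM/siHic5. In that order the values were 5, 5, 1, 1, 2 and 1 within 50 kb of the TSS. Within 200 kb they were 21, 21, 2, 13, 15 and 9. With any protein-coding transcript TSS they were 23, 23, 2, 17, 18 and 16, and with the gene body and 100 kb to either side, a setting chosen after seeing the data, again 23, 23, 2, 17, 18 and 16. With a −log10 q-value cutoff of 14.2 for all lists they were 8, 8, 1, 6, 6 and 2, and with a cutoff of 20 they were 6, 6, 1, 5, 4 and 0. With the 1000 strongest peaks of each list they were 2, 1, 1, 0, 0 and 0. Requiring 50% overlap of the shorter peak, or summits within 200 bp, left the last 4 values as reported. The GRE count of 7 became 3 with no mismatch, 15 within 200 kb and 5 within 50 kb, and stayed 7 in a 200-bp window. The moves with distance and cutoff come with fewer or more GBR counted. Leaving out a replicate was not possible because each list was called on both replicates. No paired analysis was possible because the lists carry no replicate and no result comes from a test.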
